A study of Mus musculus with 12 samples.

Results

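The transcripts of 10 genes of natural killer (NK) cells were followed in mouse lung after bleomycin, with and without Huashibaidu granules. These are the receptor genes Klra4, Klra8, Klrb1c, Klrd1, Klrk1 and Ncr1, the granule genes Gzma, Gzmb and Prf1, and the transcription factor gene Tbx21. The genes were taken by name, and all 10 were found among the 56980 genes of the expression table. Each of the 10 also passed the filter on low counts, which kept 17827 genes. Polyadenylated RNA of whole lung was sequenced from male C57BL/6 mice aged 6 to 8 weeks, in 3 groups with 4 libraries each and 12 libraries in all. HBG mice received 1 dose of bleomycin into the trachea, 5 mg/kg, and the granules, an herbal preparation, by mouth at 7 g/kg. Model mice received the same bleomycin, which scars the mouse lung, and distilled water in place of the granules. Control mice received distilled water, and the labels do not say whether anything was placed in their trachea. The labels disagree on the granules. The study description has them begin a week before bleomycin and run until the mice were killed on day 28, whereas the sample descriptions have them begin on day 7 and last 14 days, and name several doses without tying them to libraries.

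NK cells are lymphocytes that kill infected or transformed cells without prior sensitisation, and the lung holds a large resident and circulating population of them. Inhibitory receptors that read MHC class I are weighed against activating receptors that read stress ligands or viral proteins, and when activation prevails the cell releases granules holding perforin and granzymes into the contact with its target. Klrb1c (the NK1.1 antigen of C57BL/6 mice) and Ncr1 (the receptor NKp46) are the usual markers of mouse NK cells. Klrk1 (NKG2D), Klrd1 (CD94), Gzma, Gzmb, Prf1 and Tbx21 (T-bet) are also expressed by cytotoxic T cells and other lymphocytes. In RNA of whole lung, fewer NK cells and less of these transcripts per cell cannot be told apart.

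Totals per library were 17979863 to 20752001 estimated counts in HBG, 19230806 to 22622406 in Model and 18864759 to 27150787 in Control. Whether libraries of 1 group represent different mice is not stated in the labels, so the p-values reflect the spread among libraries, which may be technical. Model 2 and HBG 3 stood apart in the genes described here, and results that rest on them are given with and without them. Levels are given as CPM (the count of a gene per 1000000 counts of its library, with library sizes scaled by TMM). The lung epithelial markers Sftpc, Sftpb, Ager, Scgb1a1 and Foxj1 together reached at least 29413 CPM in every library. The 6 NK cell markers (Ncr1, Klrb1c, Klrd1, Klre1, Eomes and Klri2) were detected in every library.

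The 10 genes were high together in some libraries and low together in others, and groups overlapped for each gene. Their summed level was 34.8, 108, 161 and 52.4 CPM in HBG 1 to 4, 16.7, 162, 16.9 and 45.9 CPM in Model 1 to 4, and 64.7, 23.1, 65.6 and 69.0 CPM in Control 1 to 4. Model 2 and HBG 3 were the highest of the 12 libraries and Model 1 and Model 3 the lowest, so the Model group held both extremes. Control 2 lay well below the other Control libraries. The sum averaged 89.0 ± 57.1 CPM in HBG, 60.4 ± 69.2 CPM in Model and 55.6 ± 21.7 CPM in Control (SD, n = 4 each). Its highest library exceeded its lowest 4.62-fold in HBG, 9.71-fold in Model and 2.98-fold in Control.

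**Figure D1:**
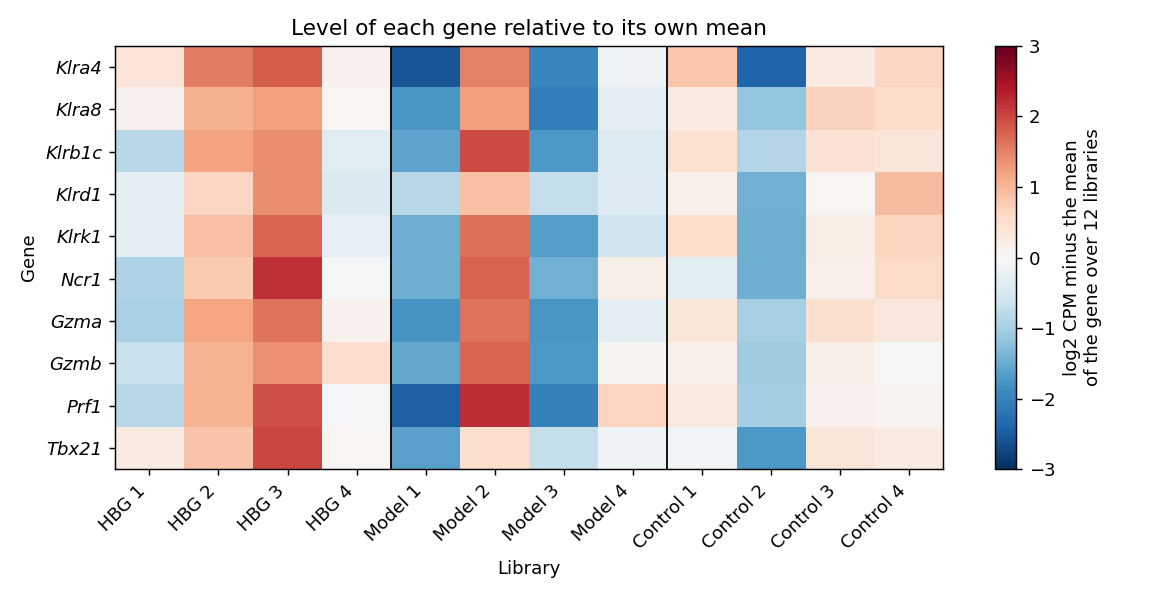
Level of each of the 10 genes (rows) in each library (columns, 4 per group), as log2 CPM minus the gene's mean over the 12 libraries. Model 2, HBG 2 and HBG 3 are red and Model 1, Model 3 and Control 2 blue in all 10 rows.

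The agreement between genes was close. Over the 12 libraries, Pearson correlations of log2 CPM among the 45 pairs of the 10 genes ranged from 0.779 (Klrb1c and Tbx21) to 0.983 (Klrb1c and Gzma), with a median of 0.913. After group means were removed, the range was 0.778 to 0.986 and the median 0.920. All genes of a library share its tissue and its scaling, so these correlations only describe the 12 libraries. Tbx21 and Klrd1 followed the others least closely, with median correlations of 0.859 and 0.860 to the other 9 genes, and Klrk1 most closely, with 0.945.

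The make-up of the sum moved far less than the sum itself. Gzma supplied between 27.2% (HBG 1) and 40.0% (Control 2) of the summed CPM, and the 6 receptors together between 36.8% (HBG 4) and 51.8% (HBG 1). The receptor share thus differed 1.41-fold between the extreme libraries, while the sum differed 9.71-fold. Some single genes kept less steady shares. Klra4 varied most, between 1.30% in Control 2 and 5.89% in HBG 1. The share of Tbx21 ran between 1.31% in Model 2 and 5.36% in Model 3, and that of Klrd1 between 4.36% in Model 2 and 13.7% in Model 3. Tbx21 and Klrd1, but not Klra4, took their smallest share in Model 2, where the sum was highest.

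Per length of transcript, the genes spanned more than an order of magnitude. Median levels over the 12 libraries were 24.9 CPM per kilobase for Gzma, 5.40 for Klrk1, 3.93 for Gzmb, 3.83 for Klrd1, 2.96 for Klrb1c, 2.95 for Klra8, 2.21 for Prf1, 1.57 for Klra4, 1.56 for Ncr1 and 0.667 for Tbx21. Ordered by mean level instead, Klrd1 stood before Gzmb and Ncr1 before Klra4. Gzma was above Klrk1 in 12 of 12 libraries and Klra4 above Tbx21 in 11 of 12. Neighbours in the middle of the order were not separated: Klrd1 was above Gzmb in 7 of 12 libraries and Klrb1c above Klra8 in 8 of 12.

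The variation of the 10 genes between libraries of the same group was high for this tissue. The biological coefficient of variation, edgeR's estimate of the spread between replicates beyond counting error, ran between 0.538 (Tbx21 and Klrd1) and 0.817 (Prf1). It was 0.210 for the median gene tested, and each of the 10 exceeded at least 92.5% of the genes tested. Over the 12 libraries, the highest level exceeded the lowest between 7.12-fold (Klrd1) and 25.3-fold (Prf1).

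Since the genes moved together, the sequence before their starts was read from the RefSeq promoter table (build GRCm38.p6), which held 9 of the 10; Klrd1 had no entry. A set of 4 short motifs of factors known in lymphocytes were searched on both strands in the 250 bases before the start. The Runx motif (TGTGGTT, or AACCACA on the other strand) was in 4 of the 9 windows, those of Klrk1, Ncr1, Gzma and Gzmb, and in 4.4% of the 32851 windows of the table. The T-box element (GGTGTGA or TCACACC; 3.33% of all windows), the ETS core (ACAGGAA or TTCCTGT; 7.2%) and the spaced STAT palindrome (TTCNNNGAA; 7.02%) were in none of the 9. A match is a description of letters only. The windows holding the Runx motif are shown 5′ to 3′ on the gene's strand with the motif in capitals, the Klrk1 window ending where another RefSeq transcript of the gene begins.
Klrk1 (chr6:129623904-129624114, minus strand): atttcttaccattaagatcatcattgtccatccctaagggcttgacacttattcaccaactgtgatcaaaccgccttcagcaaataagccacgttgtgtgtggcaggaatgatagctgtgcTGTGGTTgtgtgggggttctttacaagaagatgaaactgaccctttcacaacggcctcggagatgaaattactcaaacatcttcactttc
Ncr1 (chr7:4337465-4337714, plus strand): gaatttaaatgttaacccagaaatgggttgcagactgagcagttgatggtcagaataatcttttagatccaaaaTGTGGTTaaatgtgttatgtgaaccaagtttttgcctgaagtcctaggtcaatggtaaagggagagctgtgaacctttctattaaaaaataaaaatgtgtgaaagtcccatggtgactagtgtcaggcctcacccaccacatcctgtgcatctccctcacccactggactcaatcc
Gzma (chr13:113100982-113101231, minus strand): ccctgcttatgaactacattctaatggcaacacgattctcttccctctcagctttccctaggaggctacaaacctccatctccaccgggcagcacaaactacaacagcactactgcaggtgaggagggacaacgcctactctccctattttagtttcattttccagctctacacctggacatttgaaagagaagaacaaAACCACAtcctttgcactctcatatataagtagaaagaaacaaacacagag
Gzmb (chr14:56262335-56262584, minus strand): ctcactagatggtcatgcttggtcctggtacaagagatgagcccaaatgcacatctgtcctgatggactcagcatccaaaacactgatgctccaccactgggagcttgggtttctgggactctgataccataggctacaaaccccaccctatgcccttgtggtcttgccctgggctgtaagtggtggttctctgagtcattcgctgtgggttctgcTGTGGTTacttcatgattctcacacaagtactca
The first base of the motif lay at -129 in Klrk1, -176 in Ncr1, -51 in Gzma and -34 in Gzmb, counted from the start in the table. The other 5 windows, those of Klra4, Klra8, Klrb1c, Prf1 and Tbx21, held none of the 4 motifs.

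**Figure D2:**
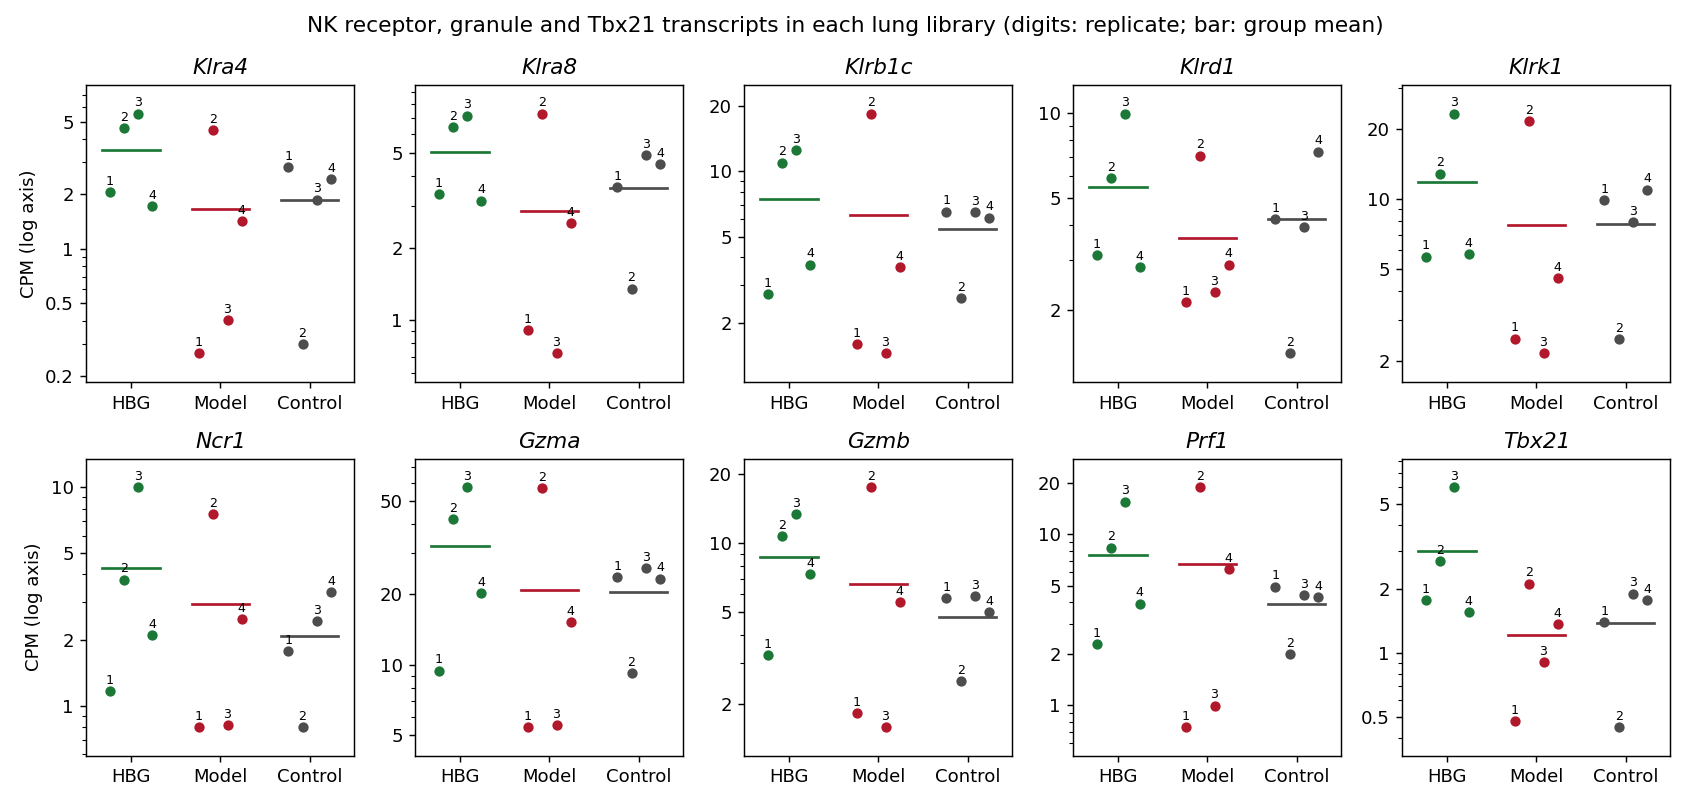
Level of each of the 10 genes in each library, as CPM on a log axis, with the groups HBG, Model and Control side by side; each point is a library, its digit the replicate number, and the bar the group mean. In each panel Model 2 is the highest Model library and the other 3 lie below the Model mean or close to it, and the groups overlap.

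Klra4 and Klra8 belong to the Ly49 family of lectin-like receptors, which lie side by side on chromosome 6. Klra4 encodes Ly49D and Klra8 encodes Ly49H, both activating receptors that signal through partner adaptors; Ly49H recognises a protein of mouse cytomegalovirus. Klra4 was at 2.05, 4.59, 5.52 and 1.72 CPM in HBG, 0.266, 4.49, 0.407 and 1.42 CPM in Model, against 2.80, 0.300, 1.86 and 2.42 CPM in Control, in the order of replicates 1 to 4. Model 1, Model 3, Model 4 and Control 2 lay below all HBG libraries, and the value of Model 1 rested on 5 estimated counts. Klra8 was at 3.35, 6.43, 7.17 and 3.16 CPM in HBG, 0.906, 7.31, 0.723 and 2.53 CPM in Model, against 3.61, 1.35, 4.89 and 4.49 CPM in Control. HBG had no library below 3.16 CPM for Klra8, whereas Model spread 10.1-fold, and the groups overlapped for both genes.

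The sequences of the Ly49 genes are similar enough that their reads bear checking. Upstream stretches of Klra8 and Klra4 are shown, as far as the Klra4 window reaches before another RefSeq transcript of that gene begins, with each base that differs in the alignment in capitals.
Klra8 (chr6:130129930-130130148, minus strand): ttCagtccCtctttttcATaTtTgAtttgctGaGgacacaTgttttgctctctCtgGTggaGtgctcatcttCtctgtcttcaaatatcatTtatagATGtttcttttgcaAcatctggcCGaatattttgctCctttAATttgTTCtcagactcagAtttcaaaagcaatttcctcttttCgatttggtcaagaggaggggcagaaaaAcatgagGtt
Klra4 (chr6:130067302-130067521, minus strand): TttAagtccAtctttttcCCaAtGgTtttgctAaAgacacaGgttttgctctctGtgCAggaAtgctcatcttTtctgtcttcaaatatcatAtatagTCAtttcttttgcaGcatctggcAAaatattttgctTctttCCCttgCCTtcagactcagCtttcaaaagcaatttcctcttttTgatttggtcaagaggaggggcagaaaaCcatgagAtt
Of 220 aligned columns, 186 were identical (84.5%). The transcripts of the 2 genes, whose lengths equal the deposited gene lengths, were 70.1% identical, and neither holds a stretch of 150 bases, the read length, found in the other. Of 1029 such stretches of Klra8, 62 (6.03%) were also found in Klra14-ps, a Ly49 pseudogene. Klra14-ps had 0 counts in 7 libraries and at most 19.3, and its count was at most 37.5% of that of Klra8. Klrb1c shared 271 of 1509 stretches (18%) with the predicted gene Gm44511, whose estimated count was at most 14.8% of that of Klrb1c in any library. How shared reads were divided is unknown, so these counts do not bound the uncertainty in the levels of Klra8 and Klrb1c. Estimated counts of Klra8 were also not whole in some libraries where Klra14-ps had 0, such as 118.68 in HBG 2. The other 8 genes shared no such stretch with another gene.

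Klrb1c encodes an activating receptor of the NKR-P1 family of lectin-like proteins. Its level was 2.70, 11.0, 12.51 and 3.71 CPM in HBG, 1.60, 18.5, 1.45 and 3.60 CPM in Model, against 6.51, 2.60, 6.48 and 6.11 CPM in Control. Model 2 was the highest of all libraries, the other 3 Model libraries lay below the 3 Control libraries other than Control 2, and the groups overlapped. Klrd1 encodes CD94, which pairs with NKG2 proteins to read the MHC class I molecule Qa-1. It was at 3.12, 5.89, 9.96 and 2.83 CPM in HBG, 2.13, 7.06, 2.31 and 2.89 CPM in Model, against 4.20, 1.40, 3.92 and 7.30 CPM in Control. Of the 10 genes, Klrd1 had the narrowest range over the 12 libraries, with Control 4 second only to HBG 3, and its groups overlapped.

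Klrk1 encodes NKG2D, which recognises stress-induced ligands of the RAE-1, H60 and MULT1 families. Klrk1 had 5.64, 12.8, 23.2 and 5.76 CPM in HBG, 2.505, 21.6, 2.17 and 4.56 CPM in Model, against 9.85, 2.499, 7.96 and 10.9 CPM in Control. HBG 3 and Model 2 stood far above the rest, and 3 of 4 Control libraries were above 3 of 4 Model libraries. Ncr1 encodes NKp46, an activating receptor that marks NK cells and some other innate lymphoid cells. For Ncr1 the values were 1.16, 3.78, 10.01 and 2.11 CPM in HBG, 0.799, 7.56, 0.814 and 2.48 CPM in Model, against 1.78, 0.800, 2.45 and 3.30 CPM in Control. Model 1, Model 3 and Control 2 were nearly equal in Ncr1 and lowest, with 15 estimated counts at the least.

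Granzymes A and B are serine proteases of the granule, and perforin, the product of Prf1, opens the target membrane to them. Gzma was the most abundant of the 10 genes, with 9.45, 42.0, 57.3 and 20.3 CPM in HBG, 5.44, 57.0, 5.51 and 15.2 CPM in Model, against 23.8, 9.25, 25.9 and 23.4 CPM in Control. HBG 3 and Model 2 were almost level, more than 10 times Model 1 and Model 3. Gzmb was at 3.26, 10.7, 13.4 and 7.37 CPM in HBG, 1.81, 17.5, 1.58 and 5.53 CPM in Model, against 5.76, 2.499, 5.90 and 5.03 CPM in Control. Prf1 had the widest spread of the 10, with 2.28, 8.37, 15.6 and 3.93 CPM in HBG, 0.746, 18.9, 0.994 and 6.29 CPM in Model, against 4.95, 1.999, 4.43 and 4.29 CPM in Control. Within Model it spread 25.3-fold, and its groups overlapped like those of Gzma and Gzmb. The ratio of Gzma to Gzmb stayed between 2.75 (HBG 4) and 4.65 (Control 4).

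Tbx21 encodes T-bet, which drives the maturation of NK cells and the expression of interferon gamma in lymphocytes. It was at 1.77, 2.70, 5.99 and 1.55 CPM in HBG, 0.480, 2.12, 0.904 and 1.37 CPM in Model, against 1.40, 0.450, 1.90 and 1.77 CPM in Control. HBG 3 was the highest, HBG 2 the next, and Model 2 was less prominent here than in the granule genes. HBG averaged 3.004 ± 2.06 CPM, Model 1.22 ± 0.702 CPM and Control 1.38 ± 0.657 CPM (SD, n = 4 each). HBG overlapped with both other groups.

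The comparison of Model with Control asks which of these transcripts differed after bleomycin. None passed the test. In edgeR's quasi-likelihood F test with Benjamini-Hochberg adjustment over all genes tested, 0 of the 10 genes passed the threshold of 0.05, against 0.348% of all genes tested (62 of 17827). At an unadjusted p under 0.05 it was 0 of 10, against 11.7% of all genes. Adjusted p-values of the 10 genes ran between 0.776 (Prf1) and 0.997 (Gzma). None of the 10 had groups free of overlap, against 8.72% of all genes tested.

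The fitted mean was higher in Model for 5 genes (Klrb1c, Ncr1, Gzma, Gzmb and Prf1) and lower for 5 (Klra4, Klra8, Klrd1, Klrk1 and Tbx21). The median log2 fold change was -0.0029 for the 10 genes and 0.0089 for all genes tested. Gzma averaged 20.8 ± 24.6 CPM in Model and 20.6 ± 7.62 CPM in Control (SD, n = 4 each), a log2 fold change of 0.01 with a standard error of 0.74. Prf1 averaged 6.72 ± 8.49 CPM in Model and 3.92 ± 1.31 CPM in Control, a log2 fold change of 0.78 with a standard error of 0.88. Klra8 averaged 2.87 ± 3.07 CPM in Model and 3.58 ± 1.58 CPM in Control, a log2 fold change of -0.32 with a standard error of 0.66. The intervals were wide: the 95% interval of Gzma ran from -1.60 to 1.63, which holds differences of about 3-fold in both directions. Standard errors of the 10 genes lay between 0.55 and 0.88, against a median of 0.198 over all genes tested.

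The balance of signs depended on which libraries entered. Without Model 2, all 10 genes had a lower mean in Model than in Control, with a median log2 fold change of -1.01, 2 of 10 at an unadjusted p under 0.05 (9.28% of all genes) and still 0 called. Gzma then averaged 8.72 ± 5.62 CPM in Model (SD, n = 3), against 20.6 ± 7.62 CPM in Control (SD, n = 4), a log2 fold change of -1.24 with an adjusted p of 0.574 in edgeR. Without Control 2, 3 genes were higher and 7 lower, with a median of -0.27, whereas the median was 0.30 without Model 1 and 0.31 without Model 3. Limma-voom gave Model 2 a weight of 0.330 and HBG 3 a weight of 0.231. It gave Model 3, among the lowest libraries in these genes, the largest weight of the 12, 2.96. Model 1 had 1.37 and Model 4 had 0.533. With these weights all 10 genes were lower and the median was -1.46. In limma-voom 7 of 10 had an unadjusted p under 0.05, against 24.6% of all genes. Limma-voom called 0 of the 10, against 6.05% of all genes. DESeq2 called 0 of the 10, against 2.5% of all genes, and had 0 at an unadjusted p under 0.05, against 13.3%.

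**Figure D3:**
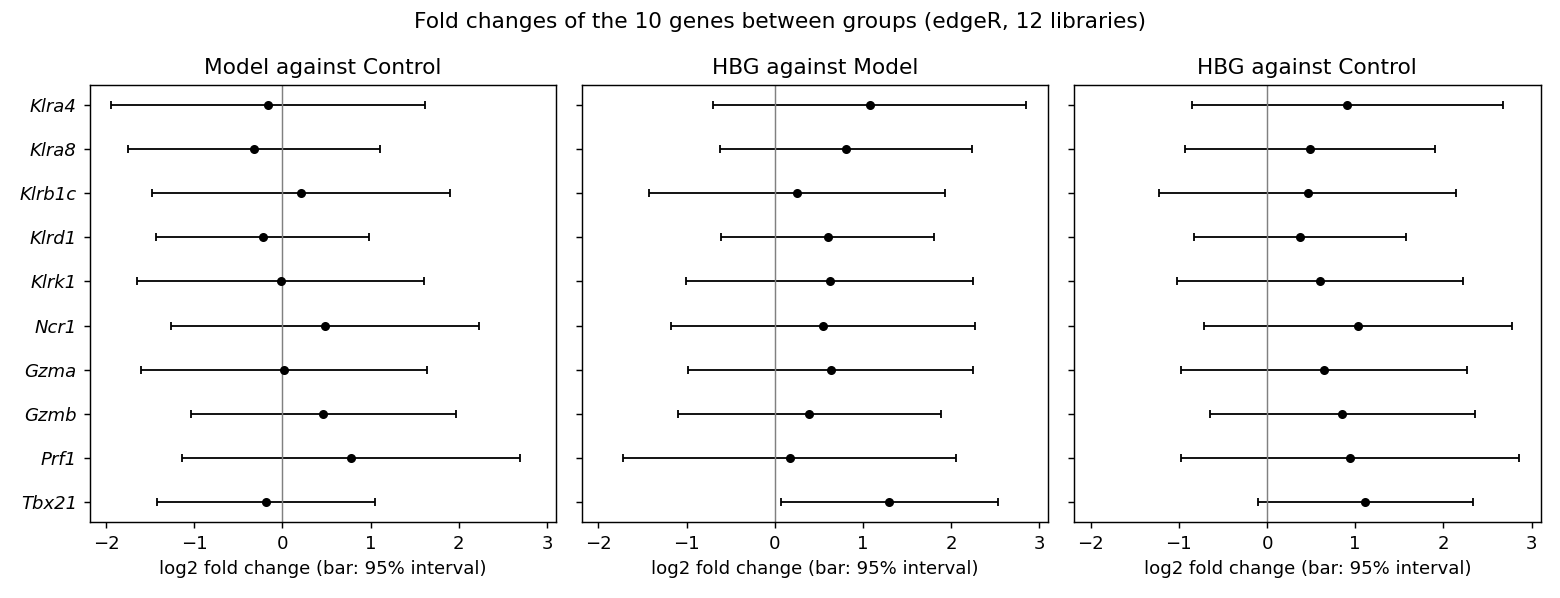
Log2 fold change of each of the 10 genes (rows) in the 3 comparisons of the groups (panels), from edgeR on 12 libraries; points are estimates and bars 95% intervals. Nearly all bars cross 0, the exception being Tbx21 in HBG against Model (0.07 to 2.53).

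The comparison of HBG with Model asks whether the granules altered lung transcripts after bleomycin. All 10 genes had a higher mean in HBG, and none was called: 0 of 10 in edgeR's quasi-likelihood F test with adjustment over all genes, where 0% of all genes tested (0 of 17827) passed. At an unadjusted p under 0.05 it was 1 of 10, against 2.43% of all genes (433). That gene was Tbx21, 2.46-fold higher in HBG, with a log2 fold change of 1.30, a standard error of 0.56 and an unadjusted p of 0.0400 that became 0.9999 on adjustment in edgeR. Its HBG libraries overlapped with Model, where Model 2 exceeded HBG 1 and HBG 4. None of the 10 had groups that did not overlap, against 1.13% of all genes tested.

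Among the receptors, Klra4 averaged 3.47 ± 1.88 CPM in HBG and 1.65 ± 1.96 CPM in Model (SD, n = 4 each), a log2 fold change of 1.08 with a standard error of 0.81. Klrk1 averaged 11.8 ± 8.26 CPM in HBG and 7.70 ± 9.31 CPM in Model, a log2 fold change of 0.62 with a standard error of 0.75. The granule genes had log2 fold changes of 0.63 for Gzma, 0.39 for Gzmb and 0.17 for Prf1, with standard errors of 0.74, 0.68 and 0.86. The median over the 10 genes was 0.61, against 0.00061 over all genes tested. This comparison and the preceding one share the Model libraries, so a Model library that is high or low moves both.

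Here too single libraries set the size. Without Model 2 the median of the 10 genes became 1.73 and 7 of 10 had an unadjusted p under 0.05, against 4.78% of all genes, with 0 called. Since the 10 genes follow each other across libraries, such counts are not those of independent genes. Without HBG 3 it became 0.12, with 7 genes higher and 3 lower in HBG and 0 at an unadjusted p under 0.05 (4.99% of all genes); Tbx21 then had a log2 fold change of 0.72. Without Model 1 or Model 3, the lowest libraries, the median was 0.32 and 0.31. Leaving out Model 2 and HBG 3 together was chosen after seeing that they were highest in these genes, so its p-values only describe. With both left out the median was 1.32, with 10 genes higher, 6 at an unadjusted p under 0.05 (4.73% of all genes) and 0 called. The summed level then averaged 65.2 ± 38.4 CPM in HBG (34.8 to 108 CPM) and 26.5 ± 16.8 CPM in Model (16.7 to 45.9 CPM; SD, n = 3 each), and the groups still overlapped. In limma-voom, which gave Model 3 the largest weight, 9 of 10 had an unadjusted p under 0.05, against 14.8% of all genes. Limma-voom called 0 of the 10, against 0% of all genes. DESeq2 called 0, against 0.0225% of all genes, and had 1 at an unadjusted p under 0.05, against 2.8%.

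**Figure D4:**
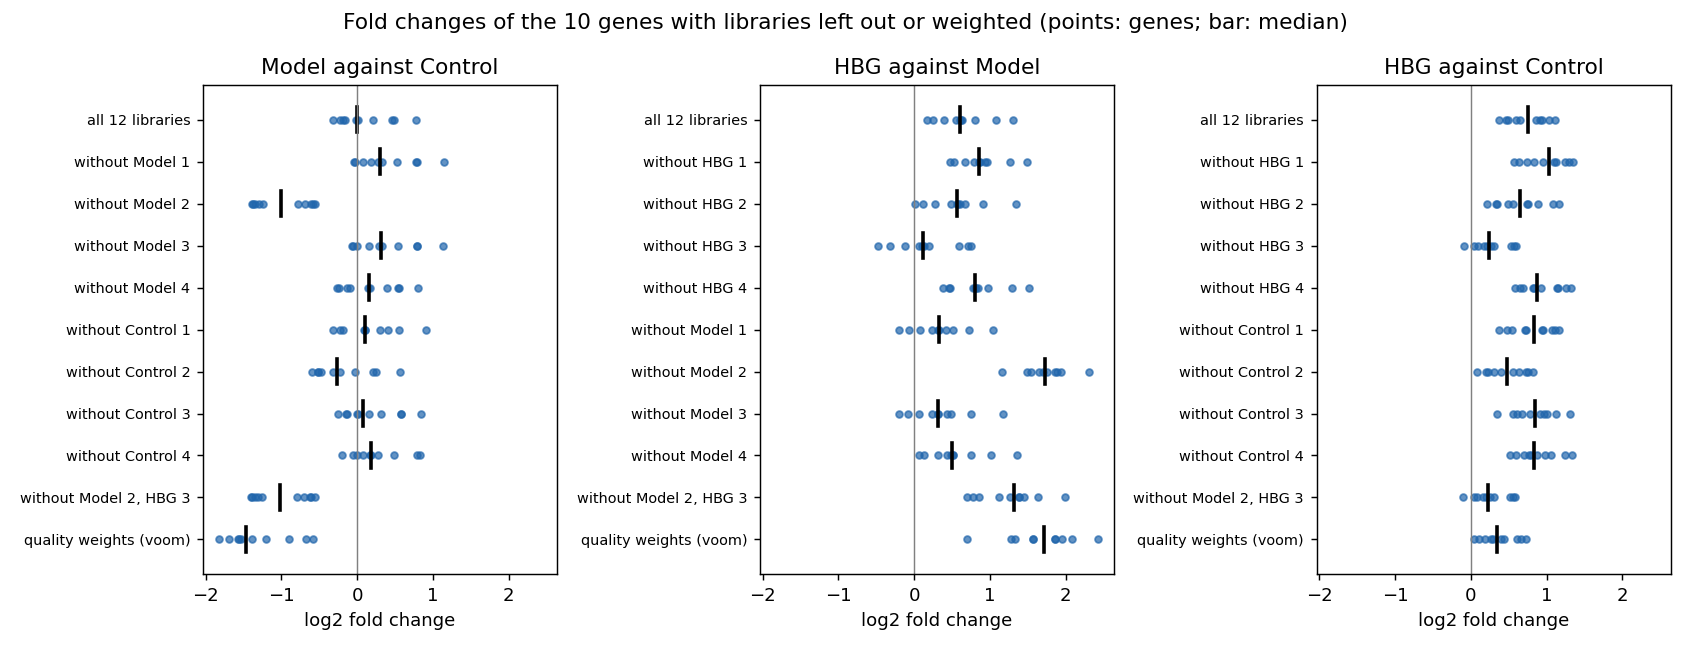
Log2 fold changes of the 10 genes (points) and their median (bar) in each comparison, with all 12 libraries, with single libraries or Model 2 and HBG 3 together left out, and with limma-voom quality weights. The Model against Control median moves to -1.01 without Model 2, and the HBG against Model median to 0.12 without HBG 3 and 1.73 without Model 2.

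HBG against Control sets the mice with bleomycin and granules against those with neither. The mean was higher in HBG for all 10 genes and 0 of 10 were called in edgeR, against 0.151% of all genes tested (27). An unadjusted p under 0.05 was reached by 0 of 10, against 8.25% of all genes, and no gene had groups that did not overlap, against 6.33%. Tbx21 came nearest, with 3.004 ± 2.06 CPM in HBG and 1.38 ± 0.657 CPM in Control (SD, n = 4 each), a log2 fold change of 1.11, a standard error of 0.56 and an adjusted p of 0.621 in edgeR. Ncr1 had a log2 fold change of 1.03 (standard error 0.80) and Prf1 one of 0.94 (standard error 0.88). The median over the 10 genes was 0.75, against 0.0061 over all genes tested, and it was 0.24 without HBG 3, 0.47 without Control 2 and 0.34 in limma-voom. DESeq2 and limma-voom each called 0 of the 10, against 1.15% and 0.567% of all genes. Each had 0 of the 10 at an unadjusted p under 0.05, against 9.9% and 9.87% of all genes.

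Another 9 lists of genes around NK cells were read beside the 10, and 0 of their 117 tested genes passed the threshold in edgeR in any comparison. At an unadjusted p under 0.05 edgeR had 12 of them (10.3%) in Model against Control, 2 (1.71%) in HBG against Model and 14 (12%) in HBG against Control; over all genes these shares were 11.7%, 2.43% and 8.25%. In Model against Control, DESeq2 called 4 of them (3.42%, against 2.5% of all genes) and limma-voom 5 (4.27%, against 6.05%). In HBG against Model both called 0, against 0.0225% of all genes in DESeq2 and 0% in limma-voom. In HBG against Control DESeq2 called 3 (2.56%, against 1.15% of all genes) and limma-voom 0 (against 0.567%). Klf2, Cxcl9, Serpinb9, Fcer1g and B2m were among the genes so called. Of the other Ly49 receptors, 6 of 10 were tested; their median log2 fold change was 0.07 in Model against Control and 0.63 in HBG against Model. Klra3 was at 1.502 ± 0.719 CPM in HBG, 0.848 ± 0.659 CPM in Model and 0.654 ± 0.206 CPM in Control (SD, n = 4 each). Of the other NKR-P1, CD94/NKG2 and related lectin receptors, 8 of 12 were tested, with medians of 0.38 and 0.47 in the same comparisons. Klrc2, which encodes the activating NKG2C partner of CD94, was at 4.18 ± 2.08 CPM in HBG, 2.65 ± 2.70 CPM in Model and 3.21 ± 1.31 CPM in Control. Both receptor lists followed the 10 genes across libraries, with median correlations to their mean log2 level of 0.903 and 0.937 (n = 12).

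Of the coreceptors and signalling adaptors 18 of 20 were tested, with a median correlation to the 10 genes of 0.746 and log2 fold changes with medians of 0.66 in Model against Control and 0.15 in HBG against Model. The adaptor genes Tyrobp (DAP12) and Fcer1g, which Ly49D, Ly49H, NKp46 and the NKR-P1C receptor use for signalling, are also abundant in myeloid cells. Tyrobp was at 34.0, 31.0, 70.4 and 22.5 CPM in HBG, 66.9, 55.9, 48.5 and 16.6 CPM in Model, against 27.3, 19.4, 23.9 and 23.4 CPM in Control. It was high in Model 1, where the 10 genes were lowest, and its correlation with their mean level was 0.13 (n = 12); that of Fcer1g was 0.16. In Model against Control, Tyrobp had a log2 fold change of 0.999 (standard error 0.40, adjusted p = 0.372 in edgeR) and Fcer1g one of 0.75 (standard error 0.26, adjusted p = 0.304).

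Other genes of the granule and of killing, 15 of 22 tested, had medians of 0.21 in Model against Control and -0.06 in HBG against Model. Serpinb9, an inhibitor of granzyme B, averaged 150 ± 23.1 CPM in HBG, 180 ± 51.0 CPM in Model and 114 ± 8.87 CPM in Control (SD, n = 4 each). Its log2 fold change in Model against Control was 0.67 (standard error 0.19, adjusted p = 0.201 in edgeR), and its correlation with the 10 genes was -0.25; DESeq2 gave that comparison an adjusted p of 0.0369 and limma-voom one of 0.0114. Of the other NK transcription factors 15 of 16 were tested, with medians of 0.24 and 0.21. Klf2, a factor of lymphocyte quiescence and trafficking that endothelium also expresses strongly, was at 80.0, 153, 140 and 128 CPM in HBG, 83.0, 102, 124 and 118 CPM in Model, against 275, 300.5, 254 and 145 CPM in Control. Each Model library lay below each Control library, with a log2 fold change of -1.19, a standard error of 0.24 and an adjusted p of 0.0791 in edgeR. DESeq2 gave it an adjusted p of 0.00073 and limma-voom one of 0.0116. Tox, a factor needed for NK cell development in mice, averaged 3.77 ± 1.08 CPM in HBG, 3.19 ± 0.689 CPM in Model and 2.06 ± 0.430 CPM in Control.

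Cytokines and receptors of NK cell activation, 14 of 15 tested, had medians of 0.18 in Model against Control and 0.15 in HBG against Model. Il15, the survival factor of NK cells, averaged 4.95 ± 0.747 CPM in HBG, 4.07 ± 1.25 CPM in Model and 5.35 ± 1.32 CPM in Control (SD, n = 4 each). Of the chemokines and chemokine receptors 11 of 12 were tested, with medians of 0.45 and 0.14. Cxcl9, an interferon-induced chemokine that attracts lymphocytes through Cxcr3, was at 8.71, 1.84, 2.64 and 1.11 CPM in HBG, 3.89, 2.72, 4.57 and 2.48 CPM in Model, against 0.538, 0.450, 0.388 and 0.493 CPM in Control. Each bleomycin library was above each Control library, yet the adjusted p of Model against Control was 0.0770 in edgeR, at a log2 fold change of 2.86 with a standard error of 0.58. DESeq2 gave Cxcl9 an adjusted p of 0.00023 and limma-voom one of 0.00492. The correlation of Cxcl9 with the mean level of the 10 genes was -0.13 (n = 12).

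Ligands of NK receptors were measured for 12 of 17 listed genes, with medians of 0.25 in Model against Control and 0.07 in HBG against Model. In HBG against Control the median was 0.42, with 11 higher and 1 lower in HBG. There 6 of the 12 had an unadjusted p under 0.05 in edgeR, against 8.25% of all genes. These were B2m, H2-K1, H2-D1, H2-T23, Ulbp1 and Cd48. B2m, H2-K1, H2-D1 and H2-T23 all encode chains of MHC class I molecules, so the 6 need not be independent. No other list had as high a count in any comparison, so this count is the extreme of many. None of the 12 was called, the lowest adjusted p being 0.312 in edgeR. Raet1a, Raet1b and Raet1c were not analysed here. H2-T23, which encodes Qa-1, the ligand of CD94/NKG2, was at 173, 225, 199 and 182 CPM in HBG, 157, 174, 139 and 119 CPM in Model, against 161, 128, 170 and 164 CPM in Control. Only Model 2 reached the lowest HBG library, and the log2 fold change of HBG against Model was 0.41 with a standard error of 0.14, an unadjusted p of 0.0116 and an adjusted p of 0.9999 in edgeR. Ulbp1, which encodes the NKG2D ligand MULT1, averaged 6.15 ± 3.15 CPM in HBG, 6.36 ± 1.46 CPM in Model and 3.73 ± 0.385 CPM in Control (SD, n = 4 each), with an adjusted p of 0.367 in Model against Control in edgeR. B2m, the light chain of MHC class I, averaged 1420 ± 342 CPM in HBG, 1338 ± 261 CPM in Model and 856 ± 142 CPM in Control, with an adjusted p of 0.255 in edgeR for Model against Control; for HBG against Control DESeq2 gave 0.0367. The 18 T cell identity genes, all tested, had medians of 0.41 in both Model against Control and HBG against Model. Their median correlation with the 10 genes was 0.865. Cd3e, a chain of the T cell receptor complex, averaged 6.10 ± 5.47 CPM in HBG, 5.63 ± 6.10 CPM in Model and 2.40 ± 1.26 CPM in Control.

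Genes that followed the 10 most closely were sought among 14191 tested genes with a mean of at least 1 CPM and no predicted or clone name, by the correlation of log2 CPM with their mean level over 12 libraries. The first were Nkg7, a membrane protein of cytotoxic granules, with a correlation of 0.991, Klrc1 (NKG2A) with 0.988, Ms4a4b with 0.983, Klra7 with 0.981 and Eomes, a T-box factor of NK cells, with 0.974. They were followed by the chemokine gene Ccl5 (0.970), Klri2 (0.965), the chymase gene Cma1 (0.963), Tmc8 (0.960) and S1pr5, a receptor that guides NK cells out of lymphoid tissue (0.960). Spearman correlations of these 10 genes lay between 0.923 for Ccl5, Klri2 and Cma1 and 0.986 for Ms4a4b. Without Model 1 and Model 3, the 2 libraries farthest from the median, the correlations were 0.985 for Nkg7 and 0.932 for Cma1, the lowest of the 10. Nkg7 was between 2.62 and 17.4 CPM and Ccl5 between 5.197 and 44.9 CPM over the libraries. Cma1 was between 0.107 and 3.43 CPM, so its correlation rests partly on very few counts.

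Markers of other cell types were read in the same libraries. The 8 T cell markers summed to 26.6 to 99.8 CPM in HBG, 17.7 to 97.5 CPM in Model and 11.2 to 44.0 CPM in Control, and their mean log2 level had a correlation of 0.889 with that of the 10 genes (n = 12). The 4 B cell markers summed to 24.9 to 261 CPM in HBG, 22.2 to 181 CPM in Model and 12.1 to 118 CPM in Control, with a correlation of 0.835. Model 2 and HBG 3, the 2 libraries highest in the 10 genes, were also highest in T cell and B cell markers. The same 2 libraries, in that order, were highest in endothelial markers (3310 and 3368 CPM) and neutrophil markers (558 and 247 CPM). So they were in mast cell and basophil markers (7.92 and 3.54 CPM), whereas macrophage markers were highest in HBG 3 and Model 1. The 4 endothelial markers, at 737 to 3368 CPM in HBG, 1197 to 3310 CPM in Model and 1290 to 2113 CPM in Control, had a correlation of 0.770. The 5 epithelial markers had a correlation of -0.557, at 29413 to 68209 CPM in HBG, 34363 to 53529 CPM in Model and 60036 to 82199 CPM in Control.

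Other marker sets followed the 10 genes less closely than the T cell and B cell markers did. The 5 neutrophil markers reached 558 CPM in Model 2, the highest library, against 169 CPM at most in Control, with a correlation of 0.496 with the 10 genes. For the 5 macrophage markers the correlation was 0.141, at 235 to 1177 CPM in HBG, 232 to 936 CPM in Model and 199 to 321 CPM in Control. Type 2 innate lymphoid cell markers had 0.271, with Il13 at 0 in 11 of 12 libraries, and cardiac muscle markers -0.038. Mast cell and basophil markers had 0.756 at 0.320 to 7.92 CPM over the libraries. No set had all its markers at 0, and the part of these cells in the levels of the 10 genes was not tested.

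The 10 genes were also set against the T cell markers of the same library. Their summed CPM over that of the 8 T cell markers was 0.815, 2.74, 1.61 and 1.97 in HBG, 0.943, 1.66, 0.797 and 2.13 in Model and 2.33, 2.07, 2.25 and 1.57 in Control. Model 2 and HBG 3, extreme in the sum, were unremarkable in this ratio, and Control 2 was level with the other Control libraries. HBG 1, Model 1 and Model 3 had the lowest ratios, the only ones under 1. The ratio averaged 1.78 ± 0.801 in HBG, 1.38 ± 0.625 in Model and 2.06 ± 0.344 in Control (SD, n = 4 each), and the groups overlapped.

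**Figure D5:**
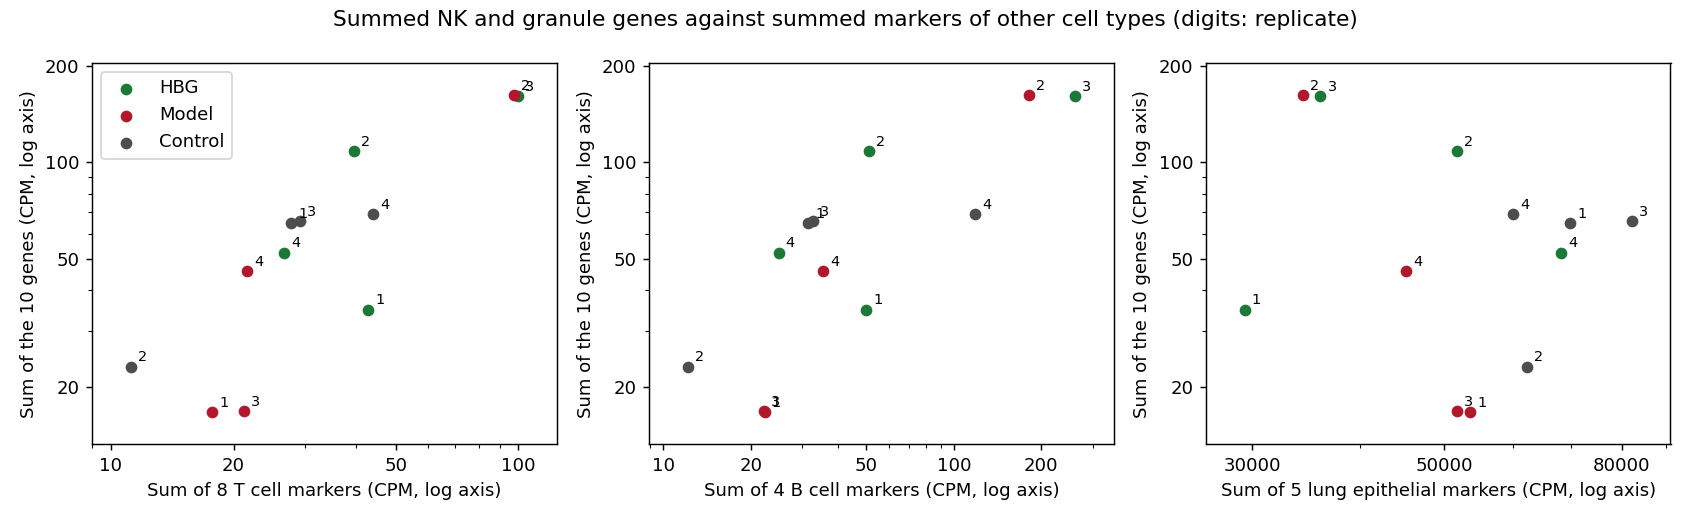
Summed CPM of the 10 genes (vertical) against summed CPM of 8 T cell, 4 B cell and 5 lung epithelial markers (horizontal) in each library, all on log axes, coloured by group with the replicate as a digit. Model 2 and HBG 3 sit at the upper right for T cell and B cell markers and toward the upper left for epithelial markers.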

How the data were processed

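Polyadenylated RNA of mouse lung was measured in 12 libraries, sequenced per the labels' protocols as paired reads of 150 bases from a stranded kit. The values are estimated counts per gene, deposited by the authors in 1 table; the unit is not named there and was read from the values, of which between 10.0% and 15.1% per library were not whole. Per the submitters' processing notes, the tools were STAR 2.7.9a, featureCounts 2.0.1, HISAT2, HTSeq, DESeq2 1.34.0, fastp, cutadapt, Trimmomatic 0.39 and FastQC 0.11.9 and the builds GRCm39 and mm10, without their roles or order. The counting tool was not given in the sources used here, and how reads shared by similar genes were divided is unknown.

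Groups and replicate numbers came from the sample titles. Estimated counts were rounded to whole numbers. Of 56980 genes, filterByExpr kept 17827, which were scaled by TMM and tested with edgeR 4.0.16 (limma 3.58.1, R 4.3.3) by the quasi-likelihood F test in 1 fit of the 12 libraries without covariates other than group. Two-sided p-values received Benjamini-Hochberg adjustment across these 17827 genes, and 0.05 was the threshold. CPM use the TMM library sizes, log2 CPM a prior count of 2, and CPM per kilobase the deposited gene lengths. Intervals (95%) come from the fit. A count of 0 allows up to 3 counts, at most 0.167 CPM, and covers counting error only.

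The 10 genes, the 9 lists and the marker sets were chosen with earlier results of these data known. From the lists, the text names among genes with a mean of at least 1 CPM those of smallest unadjusted p in Model against Control and in HBG against Model (2 each per list); some of these are not reported here. Alternatives were DESeq2 1.42.0, limma-voom with quality weights, RLE factors, no filter, a mean of at least 1 CPM, only the 2 groups compared, a replicate block and leaving out each library in turn. Model 2 and HBG 3 left out together was chosen after seeing the data. Promoters came from RefSeq (GRCm38.p6) and shared 150-base stretches from the GENCODE M21 transcripts, read with Biopython 1.88.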

Additional observations from a re-analysis of the deposited data

Results flagged for a closer look

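In each group of 4 libraries, the highest and the lowest value of each of the 10 genes and of their sum was set against the nearest other library with Dixon's ratio. This gave 6 outlying values in 33 groups checked. The cut-off is passed about 1 time in 20 by chance only for normally distributed values. Here it was applied to CPM without logs, so no excess over chance is read from the 6. Model 2 was far above the other Model libraries for 3 receptors. Klrb1c was at 18.46 CPM there, against 1.446 to 3.599 CPM in the other Model libraries. Klrd1 was at 7.06 CPM, against 2.132 to 2.889 CPM. Klrk1 was at 21.58 CPM, against 2.17 to 4.562 CPM. Control 2 was far below the other Control libraries in 3 values. Klrb1c was at 2.599 CPM, against 6.112 to 6.515 CPM in the others. Gzma was at 9.245 CPM, against 23.37 to 25.85 CPM. The summed level of the 10 genes was 23.14 CPM, against 64.66 to 69.01 CPM. The 10 genes follow each other across libraries, so these 6 values are not independent. In Model 2 the B cell markers, at 181 CPM against 22.2 to 35.4 CPM in the other Model libraries, were high too, and in Control 2 the T cell markers were low, at 11.2 CPM against 27.7 to 44.0 CPM; their part in these values was not tested.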

How the results depend on the processing

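None of the 10 genes was called under any alternative. Over 16 alternatives, 127 of 160 fold changes kept their direction in Model against Control, 153 of 160 in HBG against Model and 158 of 160 in HBG against Control, with adjusted p-values of 0.0645 to 1, 0.201 to 1 and 0.469 to 0.999. With Model 2 and HBG 3 left out together, log2 fold changes of Model against Control were -1.25 for Gzma, -0.70 for Gzmb, -1.31 for Klrb1c, -0.62 for Ncr1 and -0.56 for Prf1, and in HBG against Control -0.10 for Klrd1. With limma-voom quality weights they were -1.58 for Gzma, -1.20 for Gzmb, -1.53 for Klrb1c, -0.90 for Ncr1 and -1.56 for Prf1. Klrk1 became 0.0045 without a filter and 0.0020 with only the 2 groups fitted. Leaving out single libraries gave ranges in Model against Control of -1.24 to 0.33 for Gzma, -0.69 to 0.79 for Gzmb, -1.40 to 0.19 for Klra4, -1.29 to 0.54 for Klrb1c, -0.78 to 0.17 for Klrd1, -1.34 to 0.29 for Klrk1, -0.61 to 0.79 for Ncr1, -0.55 to 1.15 for Prf1 and -0.59 to 0.0747 for Tbx21. In HBG against Model they were -0.12 to 1.75 for Klrb1c, -0.31 to 1.64 for Ncr1 and -0.47 to 1.497 for Prf1, and in HBG against Control -0.093 to 0.770 for Klrd1.

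Correlations of deviations between libraries of the same replicate number ran between -0.357 and 0.481, 3 of 12 being over 0.1. Libraries of different numbers were not compared in this way, so whether the numbers pair libraries is not settled. With the number as a replicate block, log2 fold changes of Model against Control were -0.59 for Gzma, -0.065 for Gzmb and -0.52 for Klrb1c, and genes called over the whole table were 25 in Model against Control and 17 in HBG against Control. Over the whole table, Model against Control had 62 genes called, 444 in DESeq2 and 1079 in limma-voom. HBG against Model had 0, and 4 in DESeq2. HBG against Control had 27, 205 in DESeq2 and 101 in limma-voom. Leaving out Model 2 and HBG 3 together gave 45 in HBG against Control, and single libraries left out gave 23 to 67 in Model against Control and 16 to 25 in HBG against Control. The cause of these differences was not tested. Klra4 and Tbx21 rested on as few as 5 and 9 estimated counts in a library, which limits their precision.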
